A study of Mus musculus with 192 samples.

Results

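Mouse embryonic stem cells of the E14 line were exposed to retinoic acid (RA), and the cytoplasmic RNA of cells collected after 24 h was compared with that of cells collected after 36 h. Libraries were chosen by their labels, which gave 6 of the 192 libraries of the series: replicates 5, 6 and 7 at 24 h and replicates 5, 6 and 7 at 36 h, each number marking 1 differentiation run. The wild-type cells of both groups had been kept in 2i medium with LIF, an inhibitor and cytokine mix that holds them in the naive state, and were then moved to N2B27 medium with 0.25 µM all-trans RA. Both groups had therefore received RA, and the comparison shows the change over 12 h, not the response to RA against no RA. The inhibitors and LIF were withdrawn as RA was added, and the series has no libraries of these times without RA. Effects of RA, of that withdrawal and of time in culture therefore cannot be told apart. The cytoplasm was separated from the nucleus with a commercial fractionation kit, and polyadenylated RNA was sequenced from both fractions. A cell line is 1 genetic background, and the 3 runs are separate differentiations of it. The standard errors below come from the fit of all 24 cytoplasmic libraries. Each was derived as the size of the log2 change divided by the square root of the test's F statistic. These errors reflect variation between libraries at all 8 times, not the spread of these 6 alone.

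RA is a derivative of vitamin A that enters the nucleus and binds receptors (RARs), which sit on DNA together with RXR partners and switch nearby genes on once the ligand is bound. In embryonic stem cells it ends self-renewal: factors of the naive state are lost, and cells pass towards neuroectoderm-like and extraembryonic endoderm-like fates. Among the direct targets are the enzymes of the CYP26 family, which degrade RA, and the Hox genes, which lie in clusters and give cells their position along the body axis.

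The 6 libraries held 9119521 to 13988860 expected counts, and the test covered 11675 genes, those whose counts averaged more than 10 in the cytoplasmic series of 24 libraries. Levels are given as CPM, which are counts scaled to a common library size after TMM normalisation, which allows a gene to be compared between libraries but not with another gene of a different length. Of the 662 genes in 37 lists used below, 537 were in the files and 502 were tested, and the 35 others had counts below that filter. The stem cell factor gene Pou5f1 (OCT4) was between 1043 and 1509.8 CPM in all 6 libraries. Genes of chromosomes 7, 8, 9, X and Y and of the mitochondrial genome were not analysed here. Any pair of libraries of the same time differed by 1.75 to 3.32 times the sampling noise for the median gene, and any pair of different times by 4.95 to 7.83 times, so that no library repeated another. The 36 h library of replicate 7 stood apart from the other two of its time on the second principal component (27.4 against -16.3 and -17.3, 16.4% of the variance), while the first (54.2%) separated 24 h from 36 h, and counts are therefore also given without it. List counts and medians are given under other settings in many cases where these moved them by more than 1.5 times or turned the sign of a median.

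Of the 11675 genes, 631 were higher at 36 h (5.4%) and 694 lower (5.94%) at an adjusted p under 0.05 of edgeR's quasi-likelihood test, with a spread shared by all 24 cytoplasmic libraries. The changes upwards were larger. Of the higher genes 323 exceeded 2-fold, against 99 of the lower ones, and the median gene did not move (log2 fold change -0.00029). Without the 36 h library of replicate 7, 430 and 448 genes were called. Without the 24 h library of replicate 5 there were 408 and 480, and without that of replicate 6 there were 411 and 490. A fit of the 6 libraries alone, which takes the spread from those 6, called 1353 and 1406. The values of the 3 libraries at 36 h lay entirely above or below the 3 at 24 h for 40.6% of all genes tested. Counts of called list members below are to be read beside the 5.4% and 5.94% of all genes called higher and lower. In bulk RNA a change in the share of a cell type and a change in the RNA per cell cannot be told apart.

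Genes that handle RA itself differed in how far they still moved. The clearest values were those of Cyp26a1, the main RA-degrading enzyme, and Crabp2, which carries RA to its receptor in the nucleus. Cyp26a1 (chr19:37697798-37701536 in GRCm38) was at 93.9, 99.5 and 93.4 CPM at 24 h and 261, 269 and 266 CPM at 36 h (log2 fold change 1.47, standard error 0.16, adjusted p = 1.76e-06). Crabp2 was at 23.8, 23.8 and 26.7 CPM at 24 h and 73.8, 75.5 and 92.0 CPM at 36 h (log2 fold change 1.70, standard error 0.19, adjusted p = 2.48e-06). In both genes every library at 36 h was far above every library at 24 h. Cyp26b1, the second enzyme of the family, went the same way, at 5.38, 6.91 and 5.75 CPM at 24 h and 13.4, 18.2 and 20.0 CPM at 36 h (log2 fold change 1.51, standard error 0.35, adjusted p = 0.00511), with the library of replicate 5 the lowest of its time. Of 15 listed carriers and enzymes 8 were tested, of which 3 were higher and none lower, and the median was 0.24. That median depended on the members and libraries used, with 0.94 at a filter of a mean count above 50, 0.93 in the fit of the 6 libraries alone, 0.90 without the 24 h library of replicate 7 and 0.49 without the 36 h library of replicate 5. Dhrs3, which turns retinal back to retinol, stood at 0.37 (adjusted p = 0.482) and did not pass.

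The receptors moved little. Rarb, which is itself switched on by RA in many cells, was at 30.3, 32.1 and 32.6 CPM at 24 h and 37.3, 35.2 and 41.1 CPM at 36 h (log2 fold change 0.26, standard error 0.16, adjusted p = 0.387). The 36 h values were all above the 24 h values, by less than the test could separate. Rara and Rarg, the other receptors of the family, had log2 fold changes of -0.07 and -0.17, which did not pass. Rxra, the shared partner, was the one of 8 tested receptors and cofactors that rose, from 49.1 to 78.0 CPM (log2 fold change 0.67, standard error 0.087, adjusted p = 1.39e-05), and none fell. Over the 8 genes the median was 0.024, and -0.028 without the 36 h library of replicate 6. The fit of the 6 libraries alone called 3 of them higher and 3 lower, and the fit with the run as a block called 1 lower.

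The elements that RARs bind are pairs of a short hexamer in direct repeat, here AGGTCA or the same letters with G as the first base, T as the third base or both, with 5 bases between (DR5) or 2 bases between (DR2). Both repeats were searched on both strands of the RefSeq promoter windows, which run from 250 bases before to 50 bases after each annotated gene start in GRCm38.p6. DR5 was found in 32 of 32851 windows (0.0974%) and DR2 in 88 (0.268%). Of 118 genes searched, the retinoid and Hox lists and the named genes, 73 had a window. Rarb and Cyp26a1 each held a DR5, and no searched gene held a DR2. These stretches are shown because 1 of the genes changed 2.78-fold in this step and the other did not pass the test, with the hexamers in capitals and 6 bases of flank on each side:
Cyp26a1, chr19:37697770-37697798, minus strand, with the repeat 32 to 16 bases before the RefSeq gene start: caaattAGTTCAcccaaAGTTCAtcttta
Rarb, chr14:16575507-16575535, minus strand, with the repeat 53 to 37 bases before the RefSeq gene start: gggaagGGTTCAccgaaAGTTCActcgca
A match describes the letters and is not a measured binding site, and no match says only that these letters were not in the window.

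Other genes that RA is known to switch on rose for 7 of 14 tested and fell for 1, with a median of 0.50. Against 5.4% of all genes, 50% of this list rose, although its members were picked as known targets. The TALE homeobox genes Meis1 (1.09, adjusted p = 2.43e-05) and Meis2 (0.72, adjusted p = 5.59e-04), whose proteins bind DNA together with Hox proteins, were both higher. Tshz1 (1.54) and Zfp503 (2.15), both zinc finger genes, the WNT modulator gene Dact1 (0.87) and Gata6, described below, passed as well. Cited2, a transcription cofactor, fell (-0.44, adjusted p = 0.00283), and the fit of the 6 libraries alone called 2 of the list lower. Stra8, a germ cell gene known for its response to RA, was at 781, 778 and 818 CPM at 24 h and 907, 909 and 925 CPM at 36 h, and did not pass (0.21, adjusted p = 0.668).

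**Figure D1:**
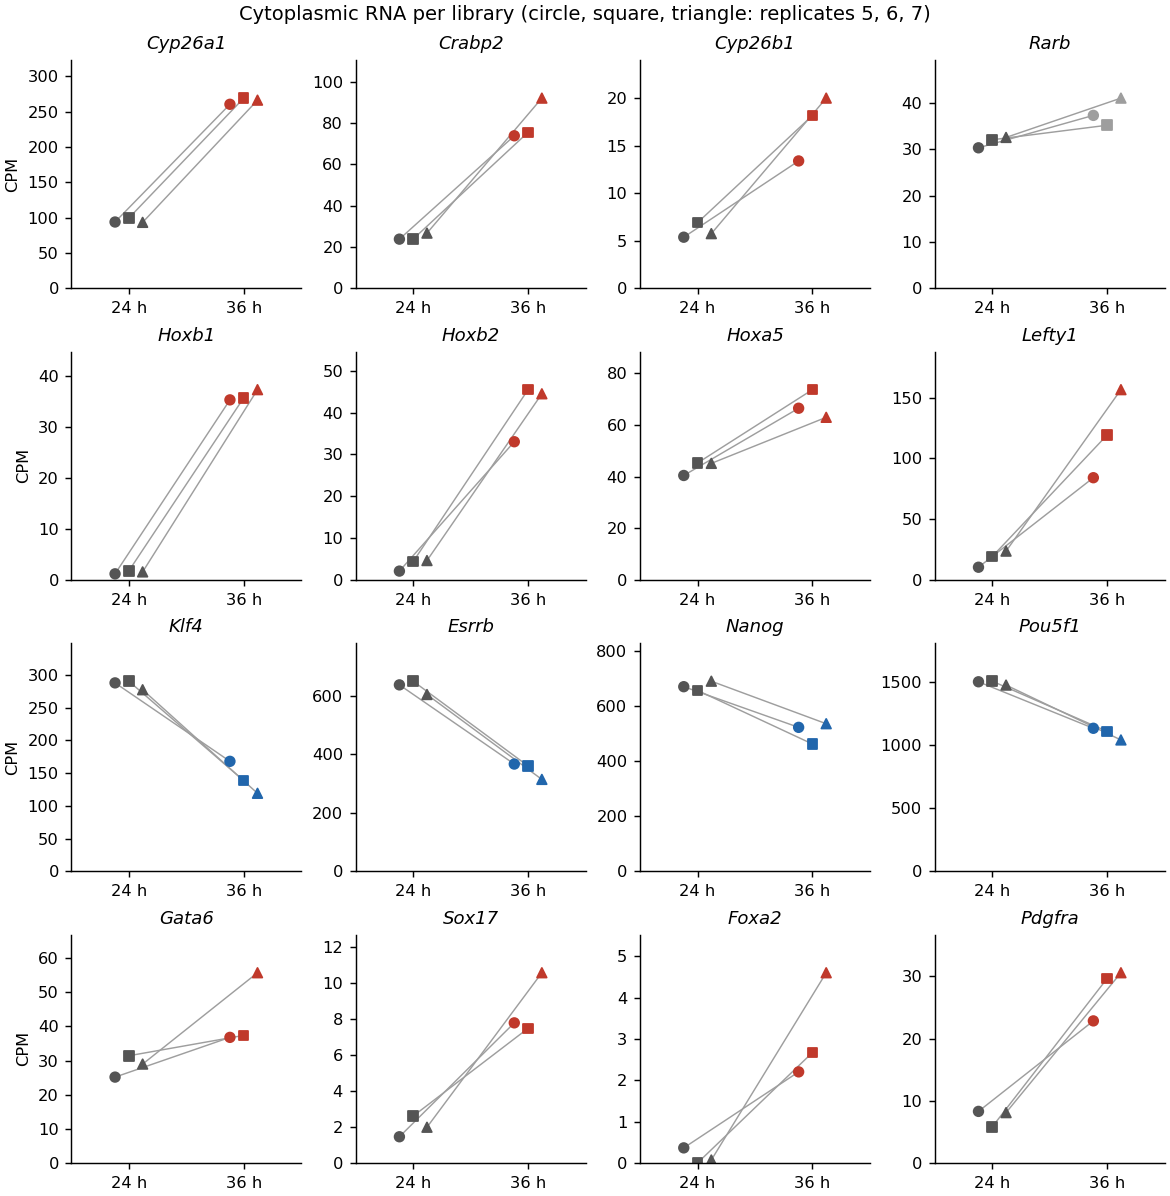
CPM of 16 genes in each cytoplasmic library at 24 h and 36 h, 1 panel per gene with its own axis from 0. Circles, squares and triangles are replicates 5, 6 and 7, lines join libraries of the same run, and the 36 h points are red where the gene was higher, blue where it was lower and grey where it did not pass (Rarb). Cyp26a1 stood at 93.4 to 99.5 CPM at 24 h and 261 to 269 CPM at 36 h.

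Among genes with a mean normalized count of at least 50 in the 6 libraries, Hoxb1, of the Hoxb cluster on chromosome 11, increased most. That mean spans both times, so a gene near 0 at 24 h could pass through its 36 h level alone. The ranking therefore favours such genes. Hoxb1 (chr11:96365752-96368256), the most 3′ gene of the cluster and an early Hox gene of the hindbrain, was at 1.18, 1.77 and 1.56 CPM at 24 h and 35.3, 35.7 and 37.3 CPM at 36 h (log2 fold change 4.57, standard error 0.34, adjusted p = 9.38e-09). Hoxb2, its neighbour, was at 2.10, 4.38 and 4.61 CPM at 24 h and 33.0, 45.5 and 44.5 CPM at 36 h (log2 fold change 3.44, standard error 0.25, adjusted p = 8.44e-09). Hoxb8, from the middle of the cluster, was at 2.37, 1.85 and 2.41 CPM at 24 h and 26.1, 26.9 and 26.7 CPM at 36 h (log2 fold change 3.58, standard error 0.31, adjusted p = 1.07e-07). No 36 h library of these 3 genes came near a 24 h library, and each gene was above 10-fold higher. Hoxb3 (2.76), Hoxb4 (1.71), Hoxb5 (2.89), Hoxb6 (2.89), Hoxb7 (1.55) and Hoxb9 (1.26) rose too, which made all 9 genes from Hoxb1 to Hoxb9. Hoxb13, at the far 5′ end of the cluster, was at 2.28, 3.96 and 1.92 CPM at 24 h and 1.38, 1.13 and 1.18 CPM at 36 h and did not pass (-1.13, adjusted p = 0.117). Several Hox genes share exons with transcripts that run across the cluster, so that counts of neighbours are not fully separate.

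The Hoxa cluster on chromosome 6 had smaller changes. Hoxa5 was at 40.5, 45.3 and 45.2 CPM at 24 h and 66.5, 73.7 and 63.0 CPM at 36 h (log2 fold change 0.63, standard error 0.20, adjusted p = 0.0369). The groups did not overlap, and Hoxa4 also passed (0.77, adjusted p = 0.0463). Hoxa3 (0.59, adjusted p = 0.0651), Hoxa7 (0.49, adjusted p = 0.327) and Hoxa9 (0.88, adjusted p = 0.0558) were above their 24 h values without passing. From 12 h to 24 h the log2 change of Hoxa5 had been 1.71, against 2.89 for Hoxb1, and the difference between steps passed for neither gene (adjusted p = 0.121 and 0.63). Hoxa4 and Hoxa5 kept their direction but not their call without the 36 h library of replicate 7 (adjusted p = 0.0857 and 0.066).

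Over the 4 clusters, 6 of 12 tested genes of paralog groups 1 to 4 rose and none fell (median 1.17), and 8 of 20 tested genes of groups 5 to 13 rose and 2 fell (median 0.41). Another 7 of groups 5 to 13 were below the filter on counts. The 2 that fell were Hoxc13 (-0.69, adjusted p = 0.0331) and Hoxc12 (-2.16, adjusted p = 0.00445), both at the 5′ end of the Hoxc cluster, and Hoxc12 went from 1.53 to 0.331 CPM. Hoxc13 did not pass without the 36 h library of replicate 7 (adjusted p = 0.119). Hoxc5 (1.6, adjusted p = 0.0261) was among those that rose, as was Hoxc8, at 0, 0 and 0.0710 CPM at 24 h and 0.642, 0.719 and 1.5 CPM at 36 h (adjusted p = 0.00348), which is a single count in all at 24 h and so gives no useful fold. Without the 36 h library of replicate 7, 4 of groups 1 to 4 and 7 of groups 5 to 13 were called higher. Of groups 5 to 13 a single gene was called lower without any 1 library other than that of replicate 5 at 24 h. The same held with no low-count filter and at a filter of a mean count above 50. The median of groups 5 to 13 was 1.57 at that filter, 0.64 in the fit of the 6 libraries alone, 0.73 without the 24 h library of replicate 7 and 0.62 without the 36 h library of replicate 7. For groups 1 to 4 the fit of the 6 libraries alone gave a median of 0.77.

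**Figure D2:**
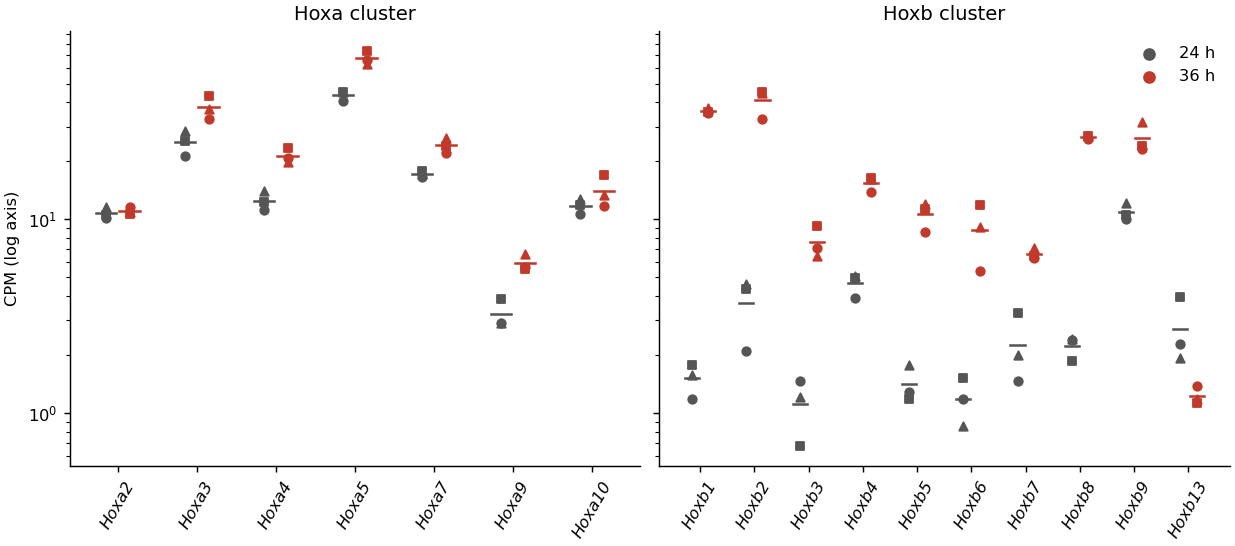
CPM on a log axis of tested genes of the Hoxa and Hoxb clusters in order from 3′ to 5′, with each library a point (circle, square and triangle for replicates 5, 6 and 7), the mean a bar, 24 h in grey and 36 h in red. Points of Hoxb1 to Hoxb9 at 36 h lie above every 24 h point of the same gene, while those of Hoxa2 and Hoxa10 overlap.

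Others of large increase were genes of varied function. Arg1, the arginase of the urea cycle, was at 2.37, 1.68 and 2.84 CPM at 24 h and 35.4, 39.4 and 49.6 CPM at 36 h (log2 fold change 4.15, standard error 0.25, adjusted p = 3.38e-09). Meox1, a homeobox gene of the somites, was at 1.37, 1.35 and 2.2 CPM at 24 h and 19.5, 21.9 and 23.3 CPM at 36 h (log2 fold change 3.68, standard error 0.36, adjusted p = 6.29e-07). No 36 h library of either gene came near a 24 h library. Gabrp, a subunit of the GABA-A receptor, rose from 1.38 to 15.3 CPM (3.44), and Cubn, the cubilin receptor of absorptive endoderm, from 1.06 to 9.27 CPM (3.09). Prom1, which encodes the membrane protein prominin, went from 2.00 to 16.1 CPM (3.00), and the sulfate transporter gene Slc13a4 from 1.21 to 9.28 CPM (2.92). Nostrin (3.06), the carbonic anhydrase gene Car4 (3.05) and the casein gene Csn3 (2.85) were also among the 15 genes of largest increase at that count. Each of the 15 averaged at most 3.70 CPM at 24 h and so reached that count only through its 36 h level.

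The largest decreases among genes of the same minimum count were smaller in size. Zan (chr5:137378637-137477064), which encodes the sperm protein zonadhesin, was at 50.1, 42.8 and 42.4 CPM at 24 h and 6.42, 6.67 and 7.49 CPM at 36 h (log2 fold change -2.72, standard error 0.36, adjusted p = 1.51e-05). Inhbb, the beta B subunit of activin, was at 111, 118 and 104 CPM at 24 h and 35.5, 35.0 and 35.1 CPM at 36 h (log2 fold change -1.65, standard error 0.17, adjusted p = 7.81e-07). In both genes the 36 h libraries lay close together and far below the 24 h libraries. Notch4, a Notch receptor gene, fell from 38.7 to 10.3 CPM (-1.91), and Ly6a, a surface protein gene that LIF is known to raise, from 81.3 to 29.4 CPM (-1.46). Others of the 15 with the largest decrease were Catip (-2.28), the metal transporter gene Slc11a1 (-2.05), the semaphorin receptor gene Plxna4 (-1.81), Dmgdh (-1.61), the bHLH factor gene Msc (-1.56), the natriuretic peptide receptor gene Npr3 (-1.53), the citrate transporter gene Slc13a5 (-1.49), Xaf1 (-1.48), the glutamate receptor gene Grin1 (-1.48) and Wscd2 (-1.47). Wscd2 lost its call without the 36 h library of replicate 7 (adjusted p = 0.131).

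Most naive pluripotency genes fell. These factors keep the ground state of the embryonic stem cell and are shut down before lineage genes take over. Of 20 listed genes 17 were tested, and 10 fell, against 5.94% of all genes, with 1 that rose and a median of -0.72. Klf4 (chr4:55527143-55532466) was at 288, 290.2 and 277 CPM at 24 h and 168, 139 and 119 CPM at 36 h (log2 fold change -1.01, standard error 0.12, adjusted p = 6.96e-06). Esrrb, an orphan nuclear receptor gene, was at 637, 650.0 and 605 CPM at 24 h and 367, 360.1 and 314 CPM at 36 h (log2 fold change -0.86, standard error 0.11, adjusted p = 6.49e-06). The 24 h and 36 h libraries of both genes were apart, with the library of replicate 7 lowest at 36 h. Tdh, an enzyme of threonine breakdown on which naive cells depend, fell most of the list (-1.32), followed by Tcl1 (-1.09), Prdm14 (-1.01), Tfcp2l1 (-0.85), Jam2 (-0.83), Tbx3 (-0.81) and Nr5a2 (-0.72). Nanog fell less, at 669, 656 and 689 CPM at 24 h and 522, 462 and 535 CPM at 36 h (log2 fold change -0.41, standard error 0.13, adjusted p = 0.0406), and its adjusted p was 0.0716 without the 36 h library of replicate 7. Fbxo15, an F-box gene, was the member that rose (0.41, adjusted p = 0.00786). DESeq2, the fit of the 6 libraries alone and the fit without a low-count filter called 3 higher, and the fit with the run as a block 2. Gbx2 (0.60, adjusted p = 0.0678) and Dppa3 (0.92, adjusted p = 0.0929) were above 0 without passing.

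Of 6 tested core factors, which are kept into the formative state, 2 fell and none rose. Pou5f1 (OCT4) was at 1505, 1509.8 and 1479 CPM at 24 h and 1136, 1111 and 1043 CPM at 36 h (log2 fold change -0.45, standard error 0.11, adjusted p = 0.00785). Sox2 was at 316, 324 and 303 CPM at 24 h and 226, 216.5 and 197 CPM at 36 h (log2 fold change -0.56, standard error 0.09, adjusted p = 1.41e-04). Both were lower in every 36 h library than in any 24 h library. Without the 36 h library of replicate 7 both still passed (adjusted p = 0.0484 and 0.0022). The other 4 tested core genes did not pass, with log2 fold changes from -0.21 (Sall4) to 0.029 (Dppa2). The median of the 6 was -0.17.

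Targets of the LIF pathway fell more often than they rose. LIF signals through its receptor to STAT3, which holds up Klf4 and its own inhibitor Socs3 and had been supplied before RA was added. Of 10 tested genes 5 fell and 1 rose, with a median of -0.42. The receptor gene Lifr was at 137, 139 and 125 CPM at 24 h and 77.7, 78.8 and 57.1 CPM at 36 h (log2 fold change -0.91, standard error 0.14, adjusted p = 1.37e-04). Socs3 (-0.69), Pim3 (-0.54) and Stat3 (-0.30) fell with Ly6a, while the kinase gene Pim1 rose (0.55), 1 of 2 higher genes with DESeq2 or in the fit of the 6 libraries alone. All 5 were also lower without the 36 h library of replicate 7.

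Genes that mark passage to the formative and primed state were mixed. Of 14 tested, 5 rose and 3 fell, with a median of 0.028 (-0.034 without the 24 h library of replicate 7). Pou3f1 (OCT6), a factor of the epiblast and of early neural cells, was at 4.74, 4.38 and 6.96 CPM at 24 h and 24.2, 30.7 and 30.4 CPM at 36 h (log2 fold change 2.40, standard error 0.24, adjusted p = 6.29e-07). The WNT effector gene Lef1 (1.35), the ligand gene Wnt8a (1.78) and the DNA methylation genes Dnmt3a (0.55) and Dnmt3l (0.45) rose as well. Etv4 (-0.58), Etv5 (-0.27) and Zic2 (-0.38) fell. Dnmt3l, Zic2 and Etv5 did not pass without the 36 h library of replicate 7 (adjusted p = 0.0879, 0.0803 and 0.12). Without that library, or the 24 h library of replicate 6 or 7, 1 of the list was called lower. Otx2, a main epiblast factor, was at 8.20, 7.07 and 7.24 CPM at 24 h and 7.07, 9.55 and 4.71 CPM at 36 h and did not pass (adjusted p = 0.96), and Fgf5 was below the filter with 3 to 19 counts per library. Among 9 tested DNA methylation genes 2 rose and 2 fell, the latter being the demethylation enzyme gene Tet1 (-0.78) and Uhrf1 (-0.27), and 1 rose without the 24 h library of replicate 6 or the 36 h library of replicate 7.

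**Figure D3:**
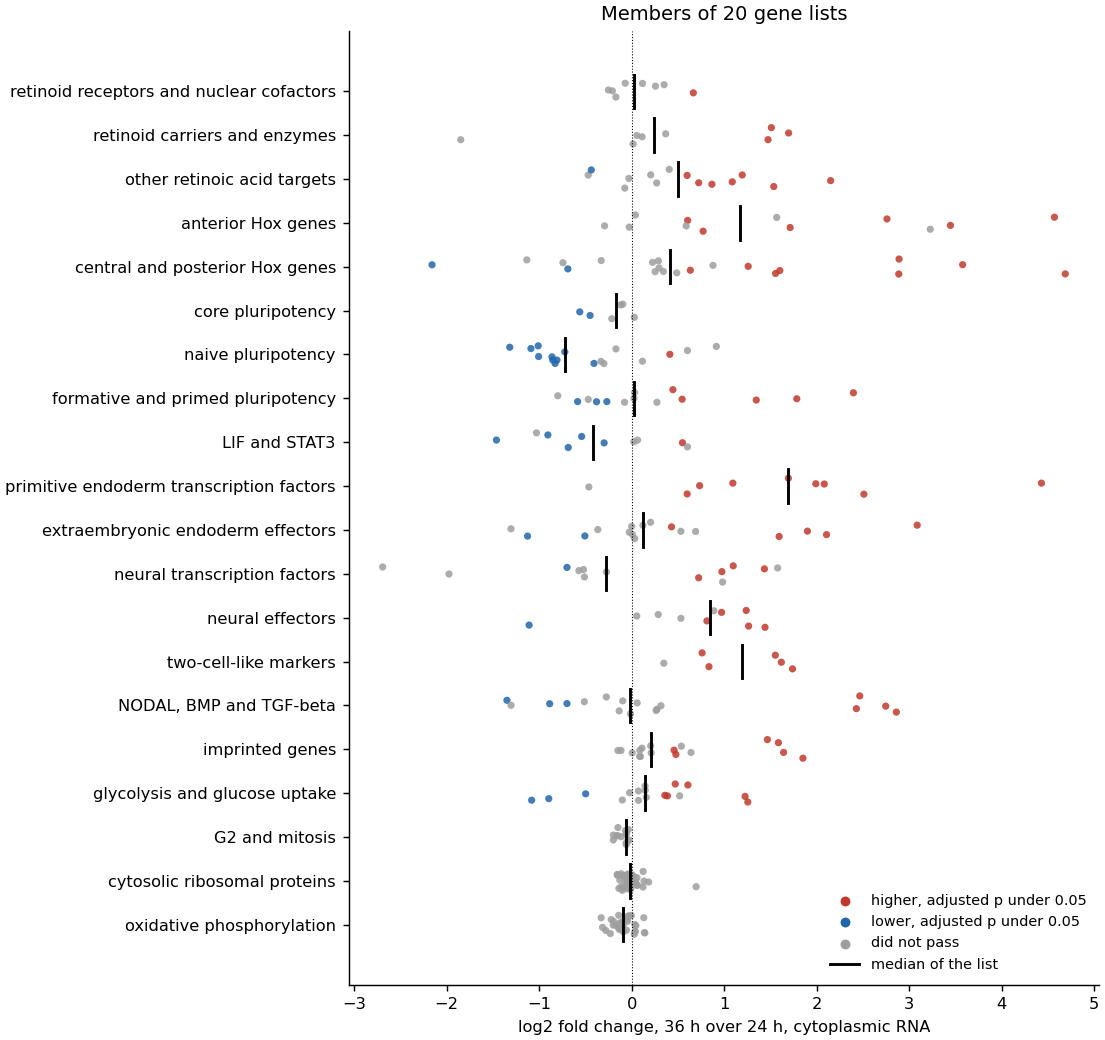
Log2 fold change of 36 h over 24 h for the tested members of 20 gene lists, 1 point per gene, coloured red (higher) and blue (lower) where the adjusted p was under 0.05 and grey otherwise, with the median of each list as a black bar. Medians ran from -0.72 for naive pluripotency to 1.69 for primitive endoderm transcription factors, and the median over all genes was -0.00029.

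Regulators of primitive endoderm, the lineage that forms the yolk sac and that RA can induce in stem cells, rose from low levels. Of 10 listed genes 9 were tested, 8 rose and none fell, with a median of 1.69. Sox17 was at 1.46, 2.61 and 1.99 CPM at 24 h and 7.80, 7.50 and 10.6 CPM at 36 h (log2 fold change 2.08, standard error 0.40, adjusted p = 9.23e-04). Gata4 was at 2.19, 3.28 and 2.84 CPM at 24 h and 9.36, 12.1 and 11.9 CPM at 36 h (log2 fold change 1.99, standard error 0.35, adjusted p = 4.51e-04). In both genes the lowest 36 h library was well above the highest 24 h library. Foxq1 (2.51), Sox7 (1.09) and Foxa1 (0.73) also rose. Foxa2 went from 0.365, 0 and 0.0710 CPM to 2.2, 2.67 and 4.60, a few counts per library at 24 h, so that its fold change is imprecise (log2 fold change 4.43, standard error 0.64, adjusted p = 4.15e-05). Gata6, the earliest of these factors in the embryo, was at 25.2, 31.4 and 29.0 CPM at 24 h and 36.8, 37.4 and 55.7 CPM at 36 h (log2 fold change 0.60, standard error 0.19, adjusted p = 0.0494), with the 36 h library of replicate 7 above the other two. Without that library Gata6, Sox7 and Foxa1 did not pass (adjusted p = 0.36, 0.143 and 0.0603), and 5 of the 9 did, as many as without the 24 h library of replicate 5 or of replicate 6. Hnf4a, a factor of later visceral endoderm, stood at 1.47 to 1.07 CPM and did not pass (-0.46, adjusted p = 0.553).

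Genes that carry out the work of extraembryonic endoderm were less uniform. Of 17 tested, 5 rose and 2 fell, with a median of 0.12 that was 0.36 without the 24 h library and 0.39 without the 36 h library of replicate 5. The receptor gene Pdgfra was at 8.29, 5.81 and 8.09 CPM at 24 h and 22.8, 29.7 and 30.6 CPM at 36 h (log2 fold change 1.90, standard error 0.25, adjusted p = 1.66e-05). Lamb1, a laminin chain, was at 48.7, 44.9 and 53.9 CPM at 24 h and 138, 146 and 161 CPM at 36 h (log2 fold change 1.59, standard error 0.18, adjusted p = 1.92e-06). For both genes all 36 h libraries were above the 24 h libraries. The endocytic adaptor gene Dab2 (2.11), Cubn and its partner receptor gene Lrp2 (0.43) rose too, while the matrix genes Nid1 (-1.12) and Sparc (-0.51) fell. A single gene of the list was called lower without the 24 h library of replicate 5 or 6 or the 36 h library of replicate 6 or 7. Lama1 and Lamc1, whose products join Lamb1 in laminin, went from 180.3 to 184 CPM and from 929 to 935 CPM and did not pass. Ttr had no count in any of the 6 libraries, and Afp was at 0.143 and 0.138 CPM on average, so that these products of mature visceral endoderm were at or near 0.

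Neural genes changed in part. Of 13 tested transcription factor genes 4 rose and 1 fell. Their median of -0.27 had no stable sign. It was 0.86 at a filter of a mean count above 50 and 0.72 in the fit of the 6 libraries alone. With 1 library left out it was 0.17 (24 h, replicate 7), 0.024 (36 h, replicate 6) and -0.65 (36 h, replicate 5). Without the 24 h library of replicate 5 or the 36 h library of replicate 7, 2 of the list rose. Pax6, a factor of neural progenitors, was at 11.7, 13.2 and 15.5 CPM at 24 h and 27.4, 29.1 and 23.2 CPM at 36 h (log2 fold change 0.97, standard error 0.19, adjusted p = 0.00118). Sox4 (1.1), Sox11 (0.72) and Msx1 (1.43) rose, and Sox21 fell (-0.70). Sox11 and Msx1 did not pass without the 36 h library of replicate 7 (adjusted p = 0.0669 and 0.112). Neurog2, which starts neurogenesis, was at 0.0306 CPM at 36 h and did not pass, and Olig2 had 0 to 2 counts per library. Of 10 tested effector genes 5 rose and 1 fell, with a median of 0.85, but 3 rose without the 24 h library of replicate 5, that of replicate 6 or the 36 h library of replicate 5. The Notch ligand gene Dll1 was at 6.93, 8.67 and 11.4 CPM at 24 h and 18.9, 22.9 and 23.3 CPM at 36 h (log2 fold change 1.26, standard error 0.23, adjusted p = 4.77e-04). N-cadherin (Cdh2, 0.97), alpha-internexin (Ina, 0.81), Gap43 (1.24) and Nrcam (1.44) rose, and the ephrin gene Efnb3 fell (-1.11).

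Markers of other lineages had low levels. Of 5 tested mesoderm and primitive streak genes Lhx1 rose (2.95) and Kdr fell (-1.35; median of the 5 -0.061), and the summed level of the listed genes was 10.7 to 13.1 CPM at 24 h and 6.47 to 10.0 at 36 h. The fit of the 6 libraries alone called none of the mesoderm genes higher, and their median was 0.81 at a filter of a mean count above 50. T (brachyury) was at 1.46, 1.35 and 1.56 CPM at 24 h and 1.65, 0.821 and 1.71 CPM at 36 h and Msgn1 had no count. Of 7 tested trophoblast genes (median 0.82, and 0.42 at that filter) 2 rose, Gata2 (2.40) and Cdx2 (2.88), the latter also a caudal-type homeobox gene. The sum of that list was 42.5 to 48.5 CPM at 24 h and 53.2 to 61.8 at 36 h, with Tpbpa at 0 and Elf5 at 0 to 2 counts. Of 7 tested fibroblast and mesenchyme genes none passed, though DESeq2 called 1 higher. Their median of 1.27 was 0.08 in the fit of the 6 libraries alone, 0.44 at that filter, 0.60 without the 36 h library of replicate 7 and 0.84 without the 24 h library of replicate 5. The sum of the list was 16.8 to 19.2 CPM at 24 h and 18.2 to 21.8 at 36 h, and 4 of the 13 in the files (Lum, Dcn, Prrx1 and S100a4) had no count. Their part in the other results was not tested.

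Genes of the two-cell-like state, a rare totipotent-like condition in which stem cells switch on genes of the cleaving embryo, were higher at 36 h. Of 6 tested genes 5 rose and none fell, with a median of 1.19, and the summed level of the list was 92.5 to 114 CPM at 24 h and 205 to 210.4 at 36 h. Zfp352 was at 8.20, 9.68 and 15.3 CPM at 24 h and 31.8, 34.0 and 36.8 CPM at 36 h (log2 fold change 1.62, standard error 0.28, adjusted p = 3.60e-04). Tcstv3 was at 5.19, 4.21 and 4.05 CPM at 24 h and 14.4, 14.2 and 16.3 CPM at 36 h (log2 fold change 1.74, standard error 0.37, adjusted p = 0.00228). In both genes every 36 h library was above every 24 h library. Pramel7 (1.55), Tmem92 (0.84) and Gm12794 (0.76) passed as well, and Pramel6 did not (0.35). Without the 36 h library of replicate 7, Tmem92 and Gm12794 did not pass (adjusted p = 0.0938 and 0.0646), which left 3 that rose, as many as without the 24 h library of replicate 5 or 6 or the 36 h library of replicate 6. Such genes belong to families of near-identical copies, between which the counting has to split reads, and the Zscan4 genes, which define the state, were not analysed here.

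Among signalling genes the NODAL antagonist genes Lefty1 and Lefty2 rose. NODAL, a TGF-beta ligand, sets the germ layers and is restrained by Lefty1 and Lefty2, which it also switches on. Lefty1 (chr1:180935022-180938400) was at 10.4, 19.2 and 23.6 CPM at 24 h and 84.1, 119 and 157 CPM at 36 h (log2 fold change 2.75, standard error 0.28, adjusted p = 6.06e-07). Lefty2 was at 2.28, 7.49 and 6.89 CPM at 24 h and 17.4, 28.5 and 47.1 CPM at 36 h (log2 fold change 2.46, standard error 0.54, adjusted p = 0.0034). In both genes replicate 5 was lowest at each time and replicate 7 highest at 36 h, and the groups did not overlap. Bmp2 (2.43) rose too, whereas Bmp4 was at 24.6, 23.3 and 21.1 CPM at 24 h and 9.45, 8.73 and 8.88 CPM at 36 h (log2 fold change -1.35, standard error 0.18, adjusted p = 1.86e-05). Bmp7 (-0.70) and the inhibitory gene Smad7 (-0.89) fell. Of 17 tested genes 4 rose and 3 fell, with a median of -0.013 that turned to 0.029 without the 24 h library of replicate 6 or 7 and was -0.19 without the 36 h library of replicate 6. The fit of the 6 libraries alone called 5 lower.

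Feedback genes of other pathways went both ways. In the WNT list 5 of 18 rose and 2 fell (median 0.32), and the antagonist gene Sfrp5 was at 21.1, 21.4 and 27.0 CPM at 24 h and 74.0, 80.1 and 101 CPM at 36 h (log2 fold change 1.87, standard error 0.24, adjusted p = 1.39e-05). Dkk1 (2.32), Wnt5a (2.66), Lef1 and Cdx2 were the others that rose, Notum (-0.59; adjusted p = 0.0521 without the 36 h library of replicate 7) and Tcf7 (-0.30) fell, and the general WNT target Axin2 did not pass (-0.10, adjusted p = 0.704). Neither fall held without the 24 h library of replicate 5, and without any other 1 library, with DESeq2 or its size factors, or at a filter of a mean count above 50, 1 gene was called lower. The median of the WNT list was 0.018 without the 36 h library of replicate 5, 0.14 without that of replicate 6, 0.17 without the 24 h library of replicate 7 and 0.19 in the fit of the 6 libraries alone. In the FGF list 2 of 13 rose and 4 fell (median -0.08), with Dusp6, an ERK phosphatase gene, at 98.1, 100.1 and 99.2 CPM at 24 h and 174, 178 and 193.3 CPM at 36 h (log2 fold change 0.88, standard error 0.12, adjusted p = 1.86e-05) and Spry2 (-0.55), Fgfr4 (-0.90), Etv4 and Etv5 lower. Spred1 (0.51) was the other that rose. In the NOTCH list 3 of 13 rose, Dll1, Lfng (0.93) and Notch2 (0.36), and Notch1 fell (-0.35; median 0.081). Lfng and Notch1 did not pass without the 36 h library of replicate 7 (adjusted p = 0.0633 and 0.271). Without the 24 h library of replicate 5 a single NOTCH gene rose, without any 1 library none fell, and without the 36 h library of replicate 6 the median was -0.049. Hes1, a NOTCH target, did not pass (-0.22, adjusted p = 0.225). The receptor gene Notch4, described above, fell but is not in the NOTCH list.

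Imprinted genes, which are read from 1 parental copy, rose for 6 of 17 tested and fell for none (median 0.21). Peg10, a retrotransposon-derived gene of the placenta, was at 170.1, 179 and 189 CPM at 24 h and 609, 689.6 and 642 CPM at 36 h (log2 fold change 1.85, standard error 0.15, adjusted p = 2.41e-08). Mest, from another imprinted region of chromosome 6, was at 119, 125 and 125 CPM at 24 h and 338, 331 and 351 CPM at 36 h (log2 fold change 1.47, standard error 0.14, adjusted p = 1.85e-07). The libraries of each time lay close together, and the times were far apart. Sgce, the neighbour of Peg10 (1.64), Dlk1 (1.59), Grb10 (0.48) and Gnas (0.46) rose, while Meg3 (0.11, adjusted p = 0.732) and Rian (0.086, adjusted p = 0.653), noncoding RNAs of the Dlk1 region, did not pass.

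Among 17 tested genes of glycolysis and glucose uptake 6 rose and 3 fell (median 0.15). Slc2a1 (GLUT1), the main glucose transporter of these cells, was at 555, 577 and 574 CPM at 24 h and 1263, 1369 and 1356 CPM at 36 h (log2 fold change 1.23, standard error 0.082, adjusted p = 3.38e-09). The lactate exporter gene Slc16a3 (1.25), Slc2a3 (0.36), Pfkl (0.47), Tpi1 (0.39) and Eno3 (0.61) rose as well, and Ldhb (-1.08), Hk1 (-0.90) and Pfkm (-0.50) fell. Without the 36 h library of replicate 7, Slc2a3, Pfkl and Tpi1 did not pass (adjusted p = 0.059, 0.167 and 0.218), and 3 rose without any 1 of the 24 h libraries as well. In cholesterol synthesis and uptake 3 of 16 rose (18.8%, against 5.4% of all genes) and 1 fell (6.25%, against 5.94%). The median of the 16 was 0.11. Among the higher were the squalene epoxidase gene Sqle (0.30) and the sterol transporter gene Stard4 (0.25). The lower one was the mevalonate kinase gene Mvk (-0.42), which did not pass without the 24 h library of replicate 5. The fit of the 6 libraries alone called 6 higher and 2 lower. Among 34 tested subunits of oxidative phosphorylation none passed (median -0.09, range -0.33 to 0.14). Among 49 tested cytosolic ribosomal protein genes none passed (median -0.02, range -0.16 to 0.70). In that fit 2 of the oxidative phosphorylation genes were lower, and 1 ribosomal protein gene was higher and 1 lower. An oxidative phosphorylation gene was also called lower with the run as a block, with DESeq2, and without the 24 h library of replicate 7 or the 36 h library of replicate 5.

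Most genes of proliferation and of chromatin changed by small amounts, and the calls here depended on the fit. In the G2 and mitosis list none of 14 passed, with log2 fold changes all below 0, from -0.20 to -0.028. In the G1/S list 1 of 17 rose, the cyclin gene Ccnd2 (0.64). Another 4 fell, which was 23.5% against 5.94% of all genes. These were E2f2 (-0.50), Ccnd3 (-0.31), Rrm2 (-0.26) and Mcm7 (-0.18; median of the list -0.10). Of 18 tested cell cycle inhibitor and p53 target genes 1 rose, the stress gene Gadd45g (1.63), and 2 fell, Cdkn1a (-0.46) and Sesn1 (-0.40; median -0.12). Of 18 tested Polycomb and trithorax genes none rose and 2 fell, Cbx6 (-0.45) and Jarid2 (-0.27; median -0.062). In the unfolded protein and amino acid response 2 of 14 rose and 2 fell (median 0.14), and the stress factor gene Atf3 went from 3.35 to 16.4 CPM (log2 fold change 2.28, standard error 0.16, adjusted p = 7.17e-09). The others of that list that passed were Mthfd2 (0.29), higher, and Xbp1 (-0.43) and Asns (-0.38), lower. The fit of the 6 libraries alone called 3 G2 and mitosis genes, 6 inhibitor and p53 target genes and 5 Polycomb and trithorax genes lower, and 6 genes of the amino acid response higher. Leaving out the 24 h library of replicate 6 or the 36 h library of replicate 7 left 2 G1/S genes lower. In the inhibitor list 1 gene was lower without the 24 h library of replicate 5 or 6 or the 36 h library of replicate 7, and in the Polycomb list without the last of these. In the amino acid response 1 gene was lower without any 1 library, and 1 was higher without the 24 h library of replicate 5 or the 36 h library of replicate 6.

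RNA-binding and adhesion genes showed single changes. Lin28a, which blocks the let-7 miRNAs, was at 259.9, 271 and 269 CPM at 24 h and 409.8, 413 and 423 CPM at 36 h (log2 fold change 0.64, standard error 0.079, adjusted p = 7.29e-06), and it was the 1 gene of 9 in its list that passed (median 0.027, and -0.051 without the 36 h library of replicate 6), against 2 in the fit of the 6 libraries alone. In the miRNA machinery none of 12 rose and 2 fell, Ago2 (-0.59, adjusted p = 0.00128) and Tnrc6c (-0.34, adjusted p = 0.0127), both of the silencing complex (median -0.057), with 1 lower without the 24 h library of replicate 6 or the 36 h library of replicate 5 or 7. Among adhesion and EMT genes 2 of 11 rose and 1 fell (median 0.22), namely Cdh2, Zeb2 (2.14) and fibronectin (Fn1, -0.47). That median was 0.046 at a filter of a mean count above 50 and 0.08 without the 24 h library of replicate 6, and the fit of the 6 libraries alone called 4 higher and 3 lower, and the fit with the run as a block called 2 lower. In the actin list Ccn2 rose (0.75) and Lmna fell (-0.64) of 10 tested (median 0.21). Ccn2 did not pass without the 24 h library of replicate 5, 2 of the list rose without the 36 h library of replicate 7 and 2 fell without that of replicate 5. In the fit of the 6 libraries alone 2 fell and the median was 0.078, and 2 fell without a low-count filter. Of 13 tested nuclear lncRNAs and snoRNA host genes 2 rose, Neat1 (0.63, adjusted p = 0.0401) and Zfas1 (0.81, adjusted p = 0.0497; median 0.20), and neither passed with any 1 of the 6 libraries left out. The fit of the 6 libraries alone called 5. Of the other list members named above, Sparc, Nrcam, Jarid2, Tnrc6c, Mvk, Stard4, Rrm2, E2f2, Sesn1 and Asns did not pass without the 36 h library of replicate 7. Bmp7, Eno3, Gap43, Hoxc5, Lrp2, Mcm7, Mthfd2, Notch2, Nr5a2 and Tcf7 passed without it but not without at least 1 of the other 5 libraries, and Asns, Etv5, Hoxa4, Hoxa5, Nanog, Notch1, Sox7 and Gm12794 lost their call whichever 1 of the 6 was left out.

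The step from 24 h to 36 h was next compared with the 12 h before it and the 12 h after it, as a difference of log2 changes in the same fit. Since the steps share the libraries at 24 h or at 36 h, a high or low library at the shared time moves both steps in opposite directions. Against the step from 12 h to 24 h the change differed for 253 genes (2.17%), more positive in 84 and more negative in 169. Without the 24 h library of replicate 5, 6 or 7 the number was 116, 117 or 94. Prom1 had its lowest mean at 24 h, with 10.2, 4.73, 2.00, 16.1 and 62.0 CPM at 0, 12, 24, 36 and 48 h (difference 4.21, standard error 0.60, adjusted p = 1.83e-04). Slc13a4 (difference 3.60, standard error 0.63, adjusted p = 0.0021), Fgfbp1, which releases FGF from the matrix (difference 2.28, standard error 0.41, adjusted p = 0.00281), Dppa3 (difference 2.66, standard error 0.59, adjusted p = 0.0158) and the guidance ligand gene Slit3 (difference 2.35, standard error 0.51, adjusted p = 0.0136) were the others of largest difference. Dppa3 and Slit3 had not passed in the step itself, and their log2 changes in the step before were -1.74 and -2.49.

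The opposite kind was led by genes whose level had gone up steeply between 12 h and 24 h. These were BC061212 (difference -3.73, standard error 0.58, adjusted p = 5.35e-04), Kat2b-ps (difference -3.64, standard error 0.79, adjusted p = 0.0132), BC080695 (difference -3.36, standard error 0.58, adjusted p = 0.00168), the retinol dehydrogenase gene Rdh1 (difference -3.22, standard error 0.79, adjusted p = 0.0325) and Apol7b (difference -2.74, standard error 0.56, adjusted p = 0.00846). Kat2b-ps is a pseudogene, whose reads can be shared with Kat2b. Of the two-cell-like list, Zfp352, Tmem92 and Gm12794 were among them. Zfp352 was at 2.95, 0.632, 11.1, 34.2 and 38.1 CPM on average at 0, 12, 24, 36 and 48 h, with log2 changes of 4.18 in the first step and 1.62 in the second (difference -2.57, standard error 0.56, adjusted p = 0.0133). Cyp26a1 had a smaller change than before, from a log2 change of 2.61 to one of 1.47 (difference -1.13, standard error 0.28, adjusted p = 0.0354). For Inhbb the log2 changes were -0.089 before and -1.65 here (difference -1.56, standard error 0.28, adjusted p = 0.00236).

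Against the step from 36 h to 48 h the change differed for 151 genes (1.29%), more positive in 73 and more negative in 78. With the run as a block these were 139 and 104. The number called depended on single libraries, with 39, 35 and 18 genes without the 36 h library of replicate 5, 6 and 7, and 54 and 59 without the 24 h library of replicate 5 and 6. Hoxb1 changed by 4.57 from 24 h to 36 h and 1.62 from 36 h to 48 h (difference 2.95, standard error 0.49, adjusted p = 0.0052), and reached 111 CPM at 48 h. Arg1 (difference 2.38, standard error 0.37, adjusted p = 0.00412), Lefty1 (difference 2.21, standard error 0.43, adjusted p = 0.0131), Hoxb2 (difference 2.09, standard error 0.38, adjusted p = 0.00811) and the heat shock gene Hspa1a (difference 2.32, standard error 0.38, adjusted p = 0.00456) followed, and Hspa1a has a near-identical copy beside it. The leading genes of the other sign had a lower mean at 36 h than at 24 h or 48 h. Fgfr4, an FGF receptor gene, stood at 7.87, 4.2 and 9.32 CPM on average at 24, 36 and 48 h (difference -2.04, standard error 0.27, adjusted p = 7.59e-04). Bmp7 (difference -1.97, standard error 0.34, adjusted p = 0.00627), the guidance gene Ntn1 (difference -1.79, standard error 0.23, adjusted p = 7.59e-04), Jdp2 (difference -1.84, standard error 0.42, adjusted p = 0.0308) and Spats2l (difference -2.09, standard error 0.42, adjusted p = 0.0146) made up the rest.

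**Figure D4:**
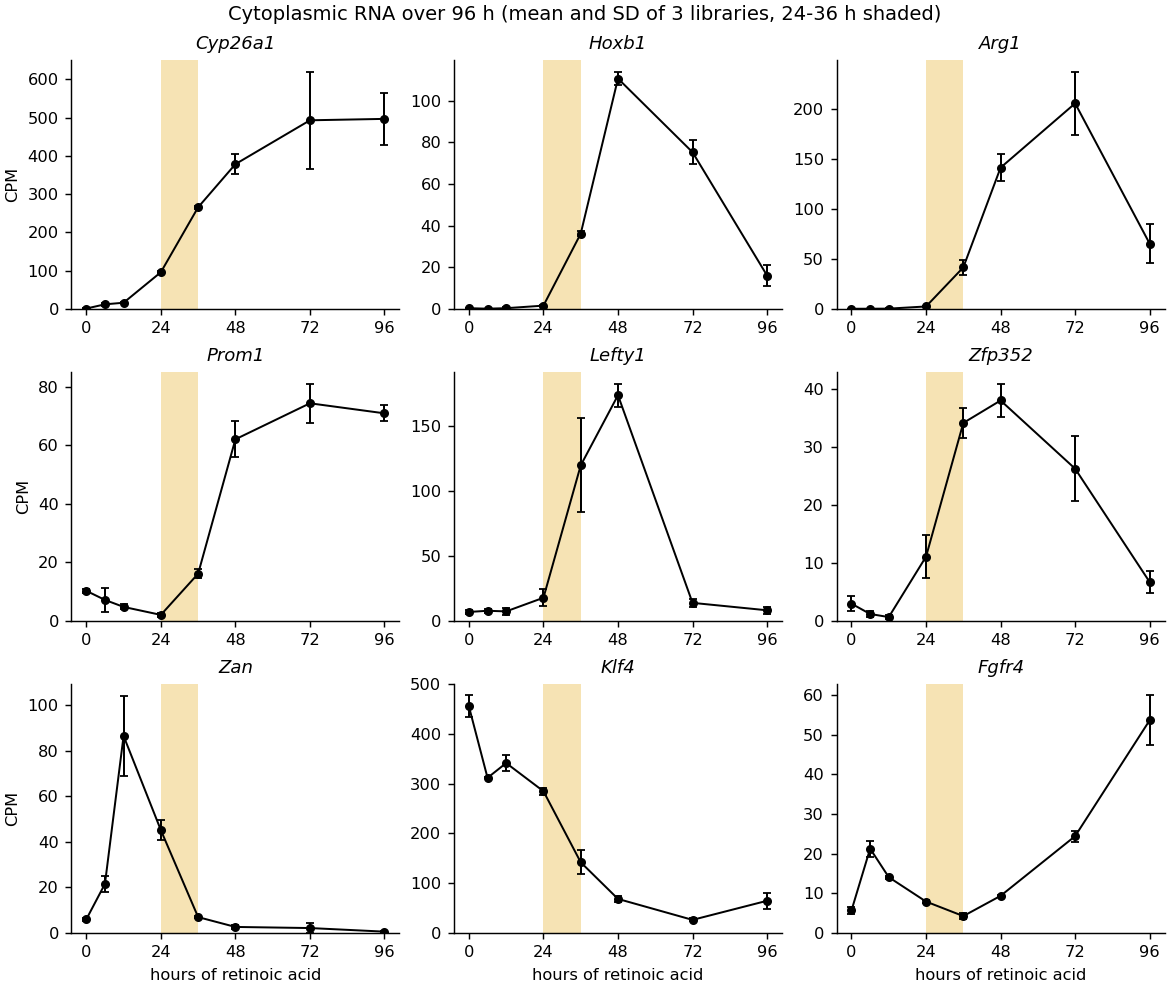
Mean CPM with SD of 3 cytoplasmic libraries at 8 times of RA for 9 genes, with the step from 24 h to 36 h shaded and each axis starting at 0. Hoxb1, Lefty1 and Zfp352 had their highest mean at 48 h, Klf4 fell through the step, and Fgfr4 had its lowest mean, 4.2 CPM, at 36 h.

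Nuclear RNA of the same cells was sequenced in separate libraries, at 10052002 to 15670306 counts at these times. RNAs known to stay in the nucleus were little enriched there. At 24 h, Neat1 was at 79.0 ± 31.8 CPM in the nuclear and 38.1 ± 2.62 CPM in the cytoplasmic libraries, and Malat1 at 433.4 ± 198 and 301 ± 44.0 (SD, n = 3). At 36 h Malat1 was at 341 ± 11.8 and 346 ± 59.0, with no higher mean in the nucleus. The other 4 such RNAs looked at had higher nuclear means, by log2 ratios of 0.54 for Neat1, 0.42 for Meg3, 0.24 for Rian and 0.61 for Mirg. The mRNAs of Gapdh, Eno1 and Pgam1 had log2 ratios of nucleus over cytoplasm of -0.020, -0.088 and -0.059 at 24 h and 0.078, 0.061 and 0.054 at 36 h. Of 11934 genes tested in the nucleus, 293 were higher at 36 h (2.46%) and 296 lower (2.48%). These calls depended on single libraries too. Without the 24 h library of replicate 7 the nucleus had 359 higher and 462 lower genes, and without any other 1 library it had 174 to 237 and 130 to 271, the fewest lower genes being without the 36 h library of replicate 7. Of the 631 genes higher in the cytoplasm 256 were called higher in the nucleus as well, which was 40.6% of the cytoplasmic and 87.4% of the nuclear calls. Of the 694 lower genes 243 were called in both, 35.0% and 82.1%. No gene was called in opposite directions.

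The nuclear values of 3 genes described above were as follows. Hoxb1 was at 1.52, 2.79 and 2.11 CPM at 24 h and 35.5, 45.3 and 43.4 CPM at 36 h in nuclear RNA (log2 fold change 4.29, adjusted p = 3.28e-07). Cyp26a1 was at 107, 124 and 110.2 CPM at 24 h and 329, 320.2 and 318 CPM at 36 h (log2 fold change 1.5, adjusted p = 2.12e-05). Klf4 was at 344, 345 and 278 CPM at 24 h and 242, 145 and 123 CPM at 36 h (log2 fold change -0.92, adjusted p = 0.0135). For Hoxb1 and Cyp26a1 the times were apart in every library of both fractions. Nuclear counts per list were 8 lower and 1 higher for the 17 naive genes, 5 higher of 9 for the primitive endoderm factors, 5 of 12 and 6 of 20 for the Hox groups, and 1 of 6 for the two-cell-like genes. Over all genes tested in the nucleus 2.46% were higher and 2.48% lower. Pou5f1 and Nanog, which fell in the cytoplasm, stood at -0.21 and -0.26 in the nucleus and did not pass there (adjusted p = 0.484 and 0.524). The difference between fractions was tested itself. Over 11817 genes, no change differed between the fractions at an adjusted p under 0.05 (0.0%), 180 did at an unadjusted p under 0.05, and DESeq2 called 2. Because the fractions were little separated, this does not show that the changes in nucleus and cytoplasm were equal. For Pou5f1 the difference of the log2 changes was -0.23 (unadjusted p = 0.196, adjusted p = 1 from edgeR).

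**Figure D5:**
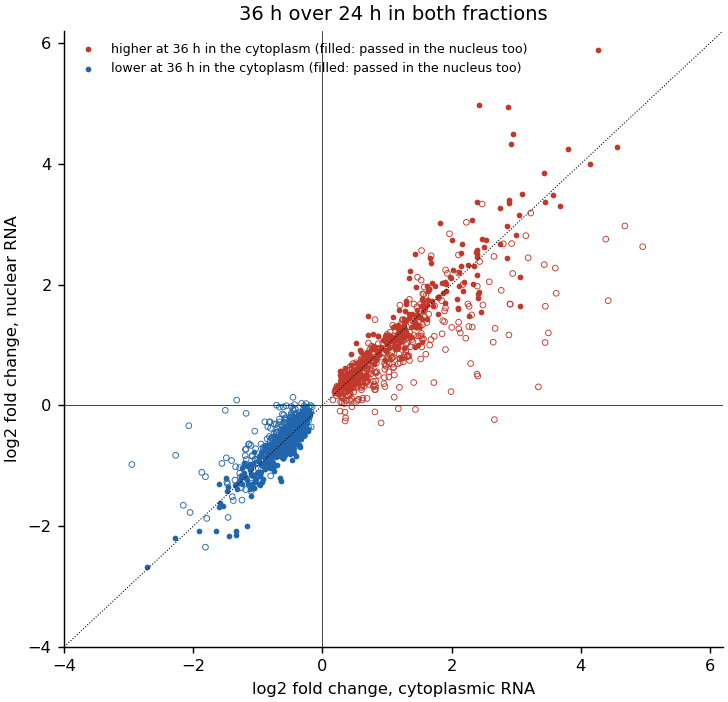
Log2 fold change of 36 h over 24 h in nuclear against cytoplasmic RNA for the genes called in the cytoplasm, 1 point per gene, red for higher and blue for lower, filled where the gene passed in the nucleus too, with the line of equal change dotted. Of the 630 higher genes tested in the nucleus 620 had a positive nuclear value, and of the 694 lower genes 687 a negative one.

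Total RNA came from other differentiation runs, with 1 paired-end and 1 single-end library at each time, so that differences are given without a test. Of the 596 higher genes with a mean of at least 1 CPM in the paired-end libraries, 541 (90.8%) were higher at 36 h there, against 56.0% of 10463 genes, and of 674 lower genes 517 (76.7%) were lower, against 44.0%. The single-end libraries gave 90.0% and 78.1%, against 58.1% and 41.9% of 10285 genes, but their 36 h library was nearly equal to the one labelled 48 h (1.21 times the sampling noise, against 39.1 for 24 h and 36 h), and its time is therefore uncertain. In the paired-end libraries Hoxb1 was at 16.3 and 92.6 CPM, Crabp2 at 47.0 and 155, and Klf4 at 85.2 and 23.7, at 24 h and 36 h. Gabrp stood the other way there, with 8.24 and 4.97 CPM in total RNA and a 10.9-fold increase in the cytoplasm, and Gata6 was at 12.2 and 11.1 CPM in the paired-end and 34.5 and 75.2 CPM in the single-end libraries.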

How the data were processed

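Cytoplasmic RNA was compared between 24 h and 36 h of RA (3 libraries each), with nuclear and total RNA of the same times beside it. The values are expected counts per gene, which the authors estimated with RSEM 1.3.1 and deposited unscaled. Per the submitters' processing notes, reads were trimmed by Trimmomatic 0.38 and mapped by STAR 2.6.1a to mm10 (Ensembl release 93). Single-end total RNA was mapped by Bowtie2 2.2.6 and counted by RSEM 1.2.28. Gene names, for 39762 of 39815 identifiers, came from GENCODE M21.

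Counts were rounded and tested with edgeR 4.0.16 in R 4.3.3 (TMM, mean count above 10, Benjamini-Hochberg adjusted p under 0.05) in 1 fit of all 24 libraries of a fraction, or of both fractions (48) for their difference. The text gives the largest changes in runs that agreed in sign (15 per direction, mean normalized count of at least 50; 5 per direction for differences; predicted-gene and clone names gave way) and members of 37 gene lists. Members and lists were chosen with earlier results of these data known. The labels give the replicate number as the differentiation run, which pairs the libraries. Deviations of same-run libraries correlated at 0.0115, 0.0252 and 0.0779. Alternatives were DESeq2 1.42.0, its size factors, other filters, no rounding, the run as a block, fewer libraries, and another pseudocount for total RNA. Reading the lists without the 36 h library of replicate 7, and paired-end total RNA alone, was chosen after seeing the data. Other libraries of the series were not used here, and some genes that the rules would name are not reported here. On simulated counts the test recovered 75% of 2-fold and 89% of 4-fold changes among 11675 genes in the cytoplasm, and 34% and 76% of differences between fractions among 11817. In each simulation 100 genes changed by each fold at 36 h, and all others were level across the times. Unchanged genes called numbered 8 in the cytoplasm and 2 between fractions. The real counts change at many times, so these shares need not hold for them.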

Additional observations from a re-analysis of the deposited data

How the results depend on the processing

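Of the listed genes in the files, 35 had counts below the filter and were not tested, and the fold changes of genes with a few counts at 24 h, such as Foxa2 and Hoxc8, are imprecise. In the fit of the compared libraries alone, 1353 genes were higher and 1406 lower, and the step of 24 h to 36 h differed from the one before for 608 genes and from the one after for 964. With DESeq2 these differences between steps came to 412 and 316 genes, and 446 genes were higher in the nucleus. With the replicate block the difference from the later step was called for 243 genes, and 703 genes were higher and 794 lower in the cytoplasm. The block changed none of the other 6 counts over all genes by more than 1.5 times. Of the counts of lists 4 changed by more than that, each by 1 gene. Others moved by less, such as the neural effectors that rose, from 5 to 7. Between fractions DESeq2 called 2 genes and the fit without a filter 7. The cause of these shifts was not tested.

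Leaving out 1 library at a time, 408 to 520 genes were higher and 448 to 568 lower in the cytoplasm, 94 to 196 differed from the step before, 18 to 132 from the step after, 174 to 359 were higher and 130 to 462 lower in the nucleus, and 0 differed between fractions. Size factors of DESeq2, a stricter filter and unrounded counts kept each of the 7 counts within 1.5 times. Of the cytoplasmic log2 fold changes of the called and named genes that were followed, 1 changed sign under an alternative. This was Dppa2 (0.029), which ran from -0.019 to 0.076 as 1 library was left out. By their CPM, the 36 h means of Otx2 and T, neither of them called, also crossed the 24 h means when 1 library at 36 h was left out. Of the medians of the 37 lists under the alternatives, 53 moved by more than the spread between runs, all under the stricter filter, in the fit of the compared libraries alone or with 1 library left out, and 428 did not. Changes of sign are among the 428. The neural transcription factor median, for example, was -0.27 in the main fit and 0.17 without the 24 h library of replicate 7. Of the counts per list, 842 stayed within 1.5 times, 78 fell and 42 rose beyond it.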
